A study of Mus musculus with 9 samples.

Results

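The 40 genes described here make the machinery that copies DNA in S phase, and they were followed in liver cells of mice with an inducible YAP transgene. YAP is a transcriptional coactivator of the Hippo pathway. The genes were taken by name from the deposited table of single-cell counts (40 of its 27998 genes) and read in every cell class and library. They fall into 7 roles: 9 genes of origin licensing and helicase loading, 5 of helicase activation and fork protection, 10 of polymerases, primase, clamp and clamp loader, 4 of lagging strand maturation and repair, 5 of nucleotide supply, 6 of chromatin and DNA methylation behind the fork, and the transcription factor E2f1.

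The study sequenced 9 libraries of liver cells from C57BL/6 mice. All mice carried ROSA26-rtTA-IRES-EGFP and ate doxycycline food. WT (2 libraries) had no YAP transgene and 7 days of doxycycline, whereas YAP3d (4 libraries) and YAP7d (3 libraries) carried tetYAP, which encodes the S127A form of YAP, and had 3 and 7 days. Per the study's methods, rtTA sits behind a stop that a Cre under the albumin promoter removes, so that the transgene is directed to hepatocytes. The cells came from digested entire livers, by an isolation that the methods describe for non-hepatocytes. The ages of the mice, and whether each library was 1 mouse, are not given in the sources used here, so p-values measure the spread between libraries, which may in part be technical.

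The table held 8562 cells and 63380159 unique molecular identifiers (UMIs, counts of single RNA molecules). Libraries ranged from 293 to 2554 cells and from 1314878 to 25056881 UMIs. The median UMIs per cell ran from 3190.5 to 5069.5 in WT and YAP3d libraries and from 5717 to 11471.5 in YAP7d libraries, and 46 cell barcodes occurred in more than 1 library. Whether reads of the transgene count towards mouse Yap1 was not tested. Yap1 was at 69.0 CPM in the 3 hepatocyte-like cells of WT (1 UMI, counting interval 1.75 to 385), 50.9 in the 51 of YAP3d (14 UMIs, 27.8 to 85.4) and 97.9 in the 61 of YAP7d (45 UMIs, 71.4 to 131). Over all cells it was at 11.0 and 15.5 CPM in WT, 5.28 to 12.8 in YAP3d and 1.52 to 5.53 in YAP7d libraries. A further gene, Gm10709, split the libraries apart from their groups: it stood at 3.62 to 11.2 CPM (counts scaled to 1000000 UMIs of a library) in both WT libraries and YAP3d replicates 3 and 4, and at 340 to 611 CPM in YAP3d replicates 1 and 2 and every YAP7d library.

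DNA replication begins in G1, when the origin recognition complex, Cdc6 and Cdt1 load the ring of Mcm2 to Mcm7 onto DNA. At the start of S phase Cdc45 and the GINS complex turn this ring into an active helicase, the clamp loader of Rfc subunits places the Pcna clamp, and ribonucleotide reductase, thymidylate synthase and thymidine kinase supply nucleotides. Many of these genes are transcribed by E2F factors, so that their RNA is known to be higher in cells that pass from G1 into S phase. Most cells of an adult liver are quiescent.

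Summed over the 40 genes, every YAP7d library lay above every other library in 4 of the 6 tested classes (endothelial-like, NK-cell-like, macrophage-like and T-cell-like). With each cell thinned to 2000 UMIs this held in endothelial-like and NK-cell-like cells, whereas the lowest YAP7d library was below the highest YAP3d library in macrophage-like (1965 and 2363 CPM) and T-cell-like cells (1305 and 1461). The sum in endothelial-like cells averaged 717 ± 40.8 CPM over the 2 WT libraries (mean ± SD), 1038 ± 322 over the 4 YAP3d libraries and 2296 ± 440 over the 3 YAP7d libraries. The YAP7d libraries (1898 to 2768) lay above every WT (688 and 746) and every YAP3d library (645 to 1431). In NK-cell-like cells it was 1167 ± 242, 1042 ± 483 and 3550 ± 803, in macrophage-like cells 952 ± 386, 1532 ± 681 and 2493 ± 151, and in T-cell-like cells 1341 ± 123, 1090 ± 370 and 2267 ± 657. B-cell-like cells had 594 ± 10.1, 738 ± 44.1 and 832 ± 130, and monocyte-like cells 382 ± 93.5, 400 ± 55.9 (2 of the 4 YAP3d libraries had enough cells) and 495 ± 80.1. Conventional dendritic-like cells were not among the tested classes, although every library held at least 10 of them. They stood at 1577 ± 450, 1799 ± 711 and 1629 ± 501, with overlapping libraries. In hepatocyte-like cells the sum was 1047 ± 518 in YAP3d (n = 3) and 1025 ± 244 in YAP7d (n = 3). Sums over genes are on the plain UMI total of the class, and no test is given for a sum over chosen genes. In these summed libraries a larger number of cells in S phase and more RNA per cell cannot be told apart.

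**Figure D1:**
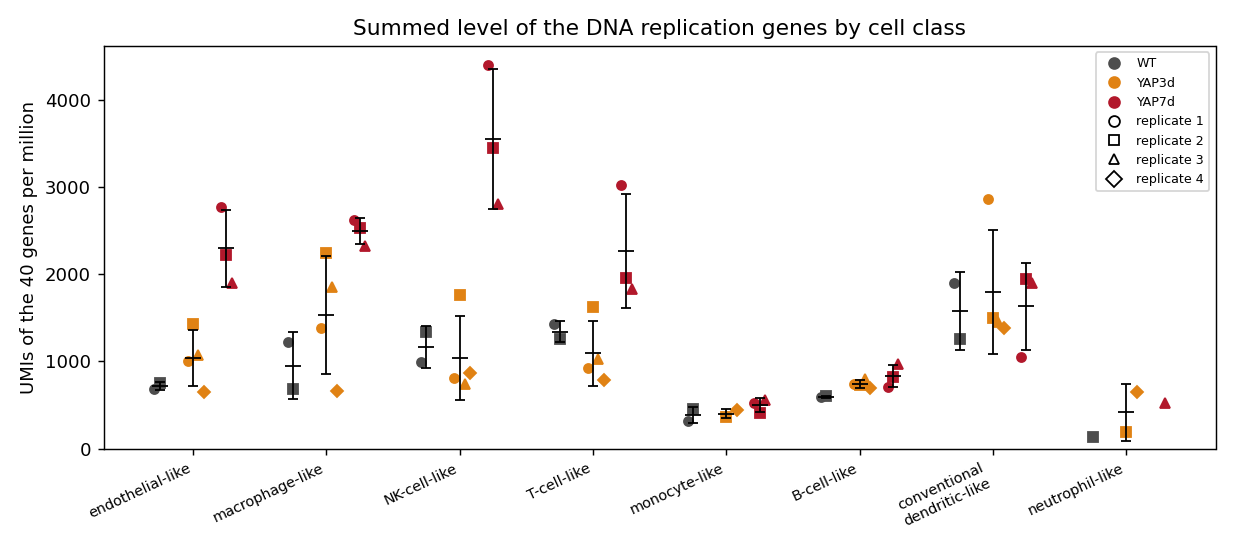
Summed CPM of the 40 genes, on the plain UMI total of the class (vertical axis) in each library with at least 10 cells, by cell class. Colours are groups, symbols are replicate numbers, black bars are mean ± SD. In endothelial-like cells the 3 YAP7d libraries (1898 to 2768) lie above all others, whereas in B-cell-like and monocyte-like cells every library is under 1000.

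Endothelial-like cells. In the cells that carry the markers of liver endothelium, 30 of the 35 tested genes were higher in YAP7d than in WT and none was lower (edgeR quasi-likelihood test, adjusted p under 0.05 over all 7504 genes tested). Over all genes of the class, 10.2% were called higher and 7.73% lower. The median log2 fold change of the 35 was 2.45, against -0.0011 over all genes tested. Of the 35, 23 passed the filter on low counts on WT and YAP3d libraries alone, and 19 of those were called with a median of 1.98, while 12 passed only through the YAP7d libraries, Rrm2, Uhrf1, Chaf1b, Gins2 and Ung among them. Against YAP3d, 27 of 35 were higher in YAP7d (background 9.62% higher, 7.36% lower), 17 of them among the 23 that passed the filter without YAP7d. YAP3d against WT gave 0 calls of 35 by edgeR and 0 by DESeq2 (3 and 7 at an unadjusted p under 0.05), where 0% of all genes were called by edgeR. The 3 comparisons share libraries. Cdc6, Cdc45, Gins1, Prim2 and Pole were too low to test.

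**Figure D2:**
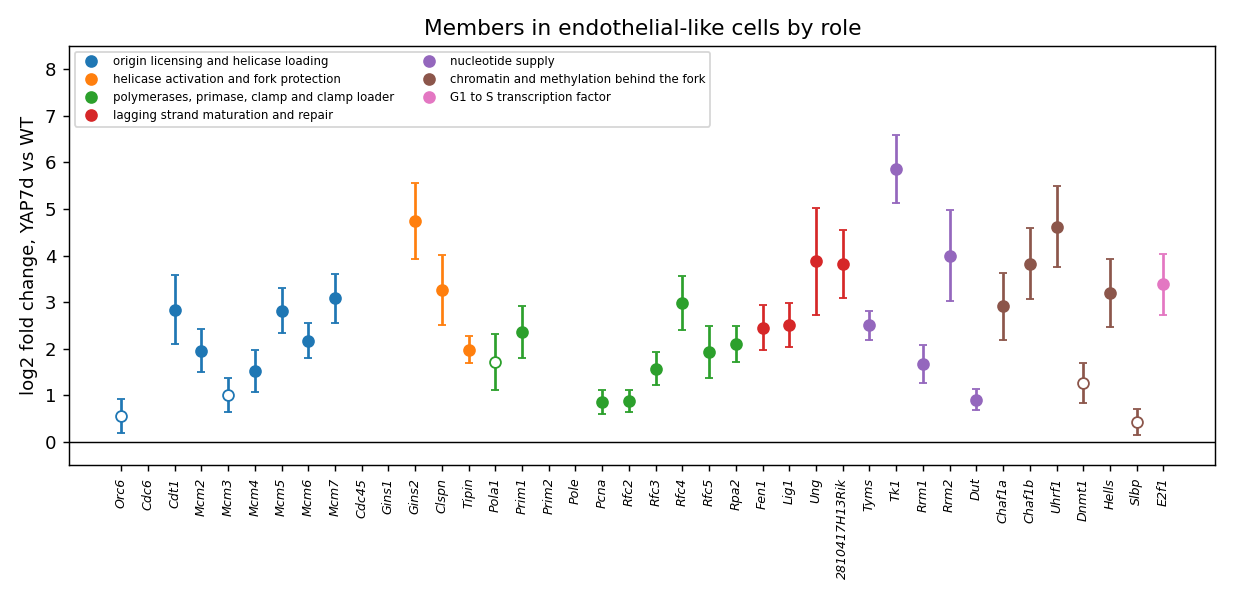
Log2 fold change of YAP7d against WT in endothelial-like cells (vertical axis, ± SE from the edgeR fit of 2 WT, 4 YAP3d and 3 YAP7d libraries) for the 40 genes, coloured by role. Filled points have an adjusted p under 0.05 and open points do not, and 5 genes without a point were not tested. All 35 points lie above 0, from 0.43 (Slbp) to 5.86 (Tk1).

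Nucleotide supply held the largest change. Tk1, thymidine kinase 1 of the salvage route (GRCm38.p6 chr11:117815519-117826087), stood at 0 and 2.17 CPM, here on TMM-scaled library sizes, in the WT libraries, at 20.8, 18.2, 8.97 and 2.21 in YAP3d and at 126, 78.3 and 91.6 in YAP7d. Every YAP7d library was above every other library, and the WT values rested on 5 UMIs. Its log2 fold change against WT was 5.86 ± 0.73 (SE). Rrm2, the regulated subunit of ribonucleotide reductase (chr12:24708254-24714146), stood at 0 and 2.60 CPM in WT, at 6.95, 9.11, 10.8 and 0.830 in YAP3d and at 51.3, 9.21 and 31.4 in YAP7d. Its YAP7d libraries overlapped YAP3d and not WT, with a log2 fold change of 4.0 ± 0.98. Tyms, thymidylate synthase, was at 14.6 ± 3.45 CPM in WT, 14.6 ± 2.48 in YAP3d and 81.8 ± 12.2 in YAP7d, a log2 fold change of 2.50 ± 0.32 against WT and of 2.49 against YAP3d. Rrm1, the other reductase subunit, rose by 1.67 ± 0.41 and Dut, which clears dUTP, by 0.91 ± 0.23.

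In the chromatin group, Uhrf1, which reads hemimethylated DNA (chr17:56303337-56323486), was at 0 and 1.74 CPM in WT, at 0, 9.11, 10.8 and 1.94 in YAP3d and at 28.0, 32.2 and 36.4 in YAP7d, a log2 fold change of 4.62 ± 0.87 from 4 UMIs in WT. Chaf1b, a subunit of the histone chaperone CAF-1 (chr16:93883900-93906115), was at 1.22 and 2.60 CPM in WT, at 13.9, 13.7, 14.4 and 2.49 in YAP3d and at 32.7, 23.03 and 37.7 in YAP7d, a log2 fold change of 3.83 ± 0.77. In both genes every YAP7d library was above every other. Chaf1a and the helicase-like Hells also rose, whereas the maintenance methyltransferase Dnmt1 was at 32.5 ± 9.11 CPM in WT and 85.1 ± 45.7 in YAP7d (adjusted p = 0.056, edgeR). Slbp, which binds histone mRNA, was at 135 ± 13.4 CPM in WT and 189 ± 77.1 in YAP7d (adjusted p = 0.31, edgeR). Slbp gave 17.7% of the UMIs of the 40 genes in WT and 6.98% in YAP7d.

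Among helicase and fork genes, Gins2 (chr8:120581266-120589075), a subunit of GINS, was at 1.22 and 1.30 CPM in WT, at 10.4, 13.7, 8.97 and 1.66 in YAP3d and at 32.7, 41.4 and 37.7 in YAP7d. The YAP7d libraries again lay above every other, with a log2 fold change of 4.74 ± 0.81 from 4 UMIs in WT. Clspn and Tipin, which protect the stalled fork, also rose. Of the licensing genes, Mcm5 rose by 2.82 ± 0.48, Mcm6 by 2.17 ± 0.37, Mcm7 by 3.08 ± 0.52, Mcm2 by 1.96 ± 0.47, Mcm4 by 1.53 ± 0.45 and the loader Cdt1 by 2.83 ± 0.74. The ring subunit Mcm3 was at 60.3 ± 12.8 CPM in WT and 124 ± 42.4 in YAP7d (adjusted p = 0.063, edgeR), and Orc6 of the origin recognition complex at 61.7 ± 18.4 and 98.5 ± 26.7 (adjusted p = 0.31, edgeR). For Cdc6, the WT libraries held 2 UMIs and the YAP7d libraries 7, a ratio of 8.25 with a counting interval of 1.57 to 81.4.

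The clamp Pcna had the smallest change among the genes called in this class. It was at 70.6 and 84.7 CPM in WT, at 93.8, 68.4, 120 and 72.7 in YAP3d and at 149, 120 and 151 in YAP7d, a log2 fold change of 0.85 ± 0.25 (adjusted p = 0.028, edgeR). Its YAP7d libraries lay above WT but overlapped YAP3d. The clamp loader genes Rfc2 (0.88), Rfc3 (1.57), Rfc4 (2.98) and Rfc5 (1.93) and the single-strand binder Rpa2 (2.097) rose on the log2 scale against WT, as did the primase subunit Prim1 (2.35). The polymerase subunit Pola1 was at 7.08 ± 2.03 CPM in WT and 23.3 ± 4.40 in YAP7d (adjusted p = 0.061, edgeR).

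The 4 genes of lagging strand maturation and repair all rose. Ung, uracil DNA glycosylase (chr5:114130366-114139321), was at 1.22 and 1.30 CPM in WT, at 0, 18.2, 8.97 and 0.830 in YAP3d and at 4.67, 36.8 and 20.1 in YAP7d, a log2 fold change of 3.88 ± 1.15 from 4 UMIs in WT. Its YAP7d libraries overlapped YAP3d. 2810417H13Rik, which encodes the Pcna-associated factor Pclaf (chr9:65890323-65903551), was at 1.22 and 11.3 CPM in WT and at 126, 115 and 105 in YAP7d, a log2 fold change of 3.82 ± 0.73. The flap endonuclease Fen1 rose by 2.45 ± 0.48 and the ligase Lig1 by 2.51 ± 0.47. E2f1 itself was at 4.04 ± 2.27 CPM in WT, 18.1 ± 15.9 in YAP3d and 49.1 ± 11.3 in YAP7d, a log2 fold change of 3.39 ± 0.65. In all, 32 of the 35 tested genes had every YAP7d library above every WT library (21.7% of all genes of the class) and 23 had every YAP7d library above every YAP3d library (13.4%). Among the 23 genes that passed the filter without YAP7d, these counts were 20 and 15.

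**Figure D3:**
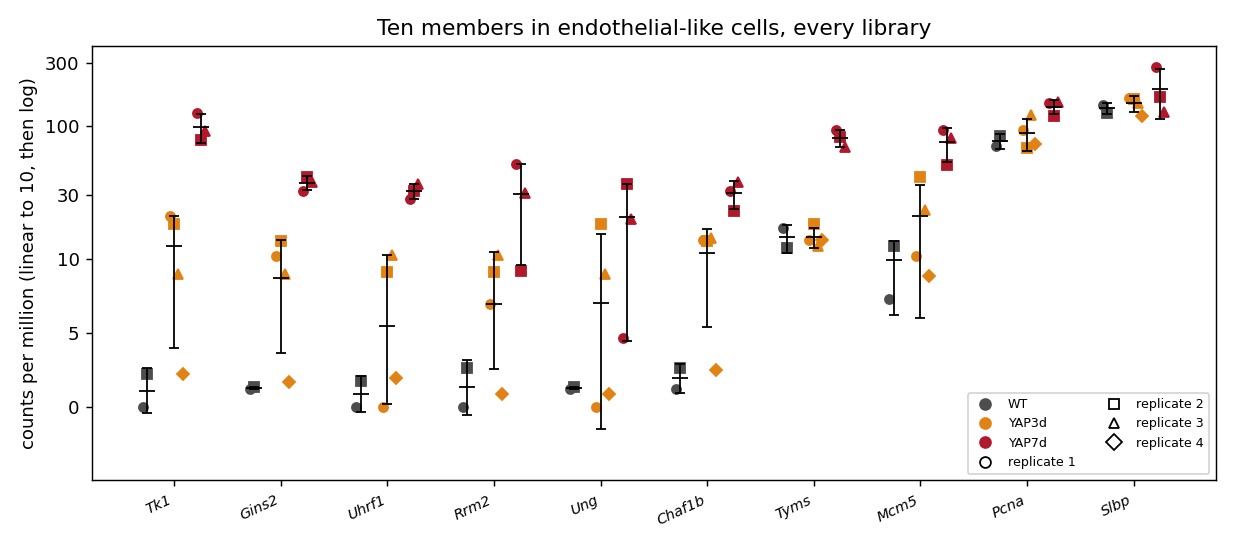
CPM on TMM-scaled library sizes (vertical axis, linear to 10 and logarithmic above) of 10 of the genes in endothelial-like cells, with 1 symbol for each library and mean ± SD bars. Tk1, Gins2, Uhrf1, Chaf1b, Tyms and Mcm5 have every YAP7d library above every other, whereas Slbp overlaps between the groups.

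How firmly these calls stand depended on the libraries. With a term for the Gm10709 split, 1 of 35 genes (Tyms) was called in YAP7d against WT and the median log2 fold change was 1.63. As both WT libraries were low and all YAP7d libraries high in Gm10709, that term is set by the 4 YAP3d libraries alone. Without WT replicate 1, 18 of the genes were called. The 27 calls against YAP3d became 15 without YAP3d replicate 4 or without YAP7d replicate 3, 11 with the replicate block, 3 with the Gm10709 term and 2 with thinned cells, where 12 genes could be tested, 9 of them called before, with a median of 1.08 before and 1.18 after. The endothelial-like cells of YAP7d were few and deep: 111 cells with a median of 11567 UMIs, against 778 cells with 3947 in WT and 1057 with 4355 in YAP3d. With each cell thinned to 2000 UMIs, 12 of the genes could be tested and 3 were called, where 9 of the same 12 were called before thinning, and the median of those 12 was 1.34 before and 1.31 after thinning. Without cells that held 3 or more UMIs of another lineage, a filter chosen after seeing the data, 22 of 30 testable genes were called on 12 and 10 cells of YAP7d replicates 1 and 2, and replicate 3 dropped out with 0 cells.

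Most YAP7d endothelial-like cells also came from a cluster of their own. Cluster 23 held 93 of the 111 cells of YAP7d, 5 of YAP3d and 0 of WT, and its leading genes included Lyve1, Cldn5 and Sox18. Over the 14 endothelial markers, all with a count, the summed level in the class ranged from 19614 to 22521 CPM in WT and from 9136 to 9610 in YAP7d, and the part of this shift in the result was not tested. The 15 macrophage markers went from 1545 to 1859 CPM in WT to 1034 to 1181 in YAP7d. The 12 neutrophil markers went from 55.6 to 126 in WT (5 of them at 0, Ly6g and Camp included) to 22.6 to 713 in YAP7d (Ly6g and Stfa2l1 at 0), which was likewise not tested. In the 18 YAP7d cells outside cluster 23 the 40 genes summed to 1778 CPM (counting interval 1539 to 2043), against 730 (701 to 761) in WT. Among those, the 9 cells of cluster 4 were at 3149, the 5 of cluster 7 at 1138 and the 4 of cluster 12 at 620, where WT cells were at 878, 686 and 731.

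**Figure D4:**
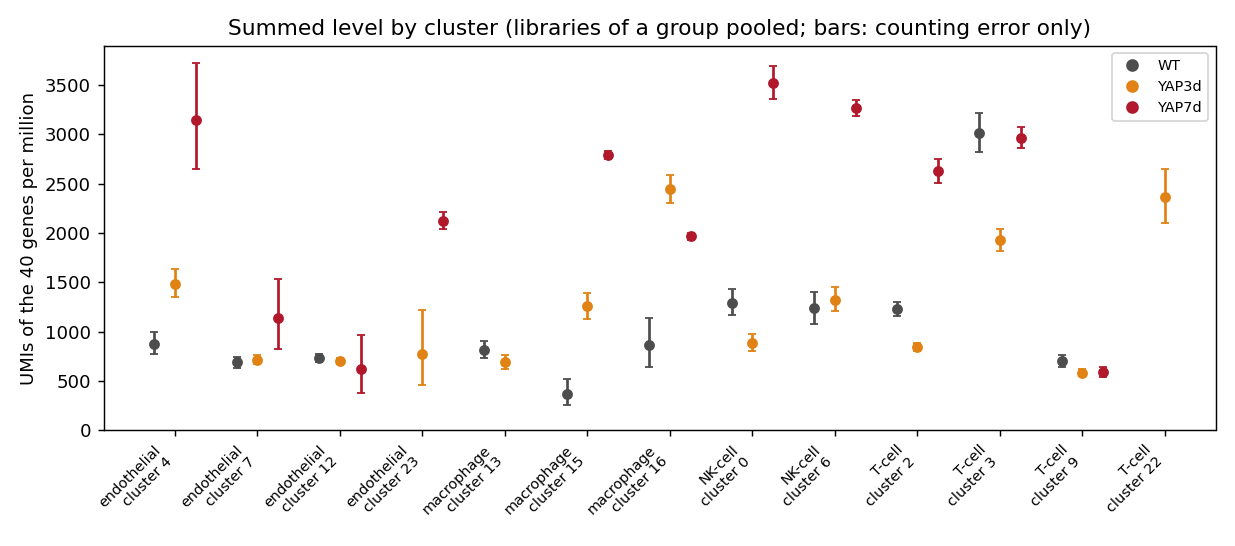
Summed CPM of the 40 genes in each cluster of the endothelial-like, macrophage-like, NK-cell-like and T-cell-like classes, with the libraries of a group pooled. Bars are exact Poisson intervals that cover counting error only. Cluster 9 of T-cell-like cells stays between 583 and 703 in all groups, and cluster 23 holds 93 cells of YAP7d at 2125.

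Promoters of the 40 genes, called or not, were searched for words that E2F factors are known to read. The words searched were TTTGGCGC, TTTCGCGC, TTTGCCGC and TTTCCCGC on both strands, in the 250 bases before and 50 after each RefSeq start (GRCm38.p6). They were found in 14 of the 33 genes with a promoter in the table, or 35% of the 40 promoters of these genes, against 2.265% of 32851 promoters of the genome. In 2 genes, Mcm5 and Mcm6, words overlap. The box CCAAT, on either strand, was in 57.5% of the 40 promoters and 37.4% of all. The stretches from 170 bases before to 50 after the start are printed on the gene's strand for Mcm5, Mcm6, Mcm7, Rfc3 and 2810417H13Rik, chosen after the matches were seen because they hold words, and for Pcna and Tk1, which hold none in this window. Capitals mark the words or their reverse complements.
Mcm5, chr8:75109339-75109558 (+): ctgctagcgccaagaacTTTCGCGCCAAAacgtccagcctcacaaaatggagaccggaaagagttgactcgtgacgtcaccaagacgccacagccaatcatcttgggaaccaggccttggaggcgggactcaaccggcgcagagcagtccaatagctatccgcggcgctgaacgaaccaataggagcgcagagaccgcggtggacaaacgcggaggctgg
Mcm6, chr1:128359656-128359875 (-): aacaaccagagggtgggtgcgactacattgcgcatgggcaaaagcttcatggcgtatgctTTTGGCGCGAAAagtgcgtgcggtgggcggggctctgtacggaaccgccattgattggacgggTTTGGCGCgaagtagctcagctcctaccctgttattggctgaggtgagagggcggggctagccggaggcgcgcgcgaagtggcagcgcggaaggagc
Mcm7, chr5:138171834-138172053 (-): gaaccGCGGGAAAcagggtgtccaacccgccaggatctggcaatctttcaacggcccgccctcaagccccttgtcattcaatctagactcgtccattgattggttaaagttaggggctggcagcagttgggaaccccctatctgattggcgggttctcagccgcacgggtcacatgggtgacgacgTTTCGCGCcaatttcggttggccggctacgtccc
Rfc3, chr5:151651159-151651378 (-): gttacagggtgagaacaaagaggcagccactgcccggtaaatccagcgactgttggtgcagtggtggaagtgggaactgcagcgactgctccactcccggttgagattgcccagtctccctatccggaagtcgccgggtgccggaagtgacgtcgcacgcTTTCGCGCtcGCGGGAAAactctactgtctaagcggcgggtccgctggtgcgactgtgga
2810417H13Rik, chr9:65890153-65890372 (+): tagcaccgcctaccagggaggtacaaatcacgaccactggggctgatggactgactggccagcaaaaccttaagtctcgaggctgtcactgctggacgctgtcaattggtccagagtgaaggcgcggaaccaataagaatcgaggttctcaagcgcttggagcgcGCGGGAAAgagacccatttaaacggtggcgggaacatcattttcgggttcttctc
Pcna, chr2:132253131-132253350 (-): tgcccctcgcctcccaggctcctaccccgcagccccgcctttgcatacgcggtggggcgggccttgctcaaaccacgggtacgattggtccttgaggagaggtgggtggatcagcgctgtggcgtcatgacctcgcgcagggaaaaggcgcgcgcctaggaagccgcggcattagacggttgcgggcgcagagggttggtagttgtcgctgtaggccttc
Tk1, chr11:117825965-117826184 (-): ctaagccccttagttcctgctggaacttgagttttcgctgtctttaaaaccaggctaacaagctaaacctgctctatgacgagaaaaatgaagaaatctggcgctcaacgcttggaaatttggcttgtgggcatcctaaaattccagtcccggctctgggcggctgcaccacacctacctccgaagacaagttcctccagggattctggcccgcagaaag
In Mcm6 the words start 110 and 47 bases before the start, with an overlapping one on the other strand. Tk1 and Pcna, with the largest and the smallest endothelial change of the genes called, both lack them here. A match describes letters and not binding.

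Other genes of the cell cycle were counted in the same endothelial-like cells, where 10.2% of all genes were higher and 7.73% lower in YAP7d than in WT. How many of the listed genes passed the filter on low counts only through the YAP7d libraries was not counted. Of 41 tested further replication genes (60 in the list), 18 were higher in YAP7d than in WT and none lower, among them the histone chaperone Asf1b at 1.52 ± 2.15 CPM in WT and 25.5 ± 4.01 in YAP7d. Of 32 tested genes of mitosis and G2 (50 in the list), 31 were higher. Mki67 rose by 4.31 ± 0.75 and the topoisomerase Top2a by 4.28 ± 0.87 on the log2 scale. Of 10 tested replication-dependent histones (20 in the list), 6 were higher, Hist1h1e and Hist1h2ap among them. Of 22 tested G1 to S regulators (30 in the list), 5 were higher and 2 lower. The 5 higher were Myc (by 3.30 ± 0.50), the kinases Cdk6 (1.78 ± 0.53) and Cdk4 (1.24 ± 0.18), the inhibitor Cdkn2a (1.69 ± 0.54) and Ccnd1 (0.93 ± 0.28). Another inhibitor, Cdkn1c, fell from 127 ± 20.6 to 12.9 ± 6.25 CPM and the cyclin Ccnd2 from 615 ± 43.8 to 331 ± 73.8 (Ccnd2 was chosen after its values were seen). The p53 target Cdkn1a was at 202 ± 50.05 and 366 ± 65.7 CPM (adjusted p = 0.071, edgeR). With the Gm10709 term, Cdk6 (log2 fold change 0.55), Cdkn2a (1.05), Mki67 (3.69), Top2a (4.08), Myc (3.15), Ccnd1 (0.12), Cdkn1c (-2.61), Asf1b (3.70) and Hist1h1e (3.95) were no longer called, and Cdkn1a (1.89) was.

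NK-cell-like cells. In these cytotoxic lymphocytes 13 of 28 tested genes were higher in YAP7d than in WT and none lower, where 3.78% of all 3945 genes were called higher and 3.19% lower. Only 7 of the 28 passed the filter on WT and YAP3d libraries alone, and 1 of those (Dut) was called, with a median log2 fold change of 1.02 for the 7. Against YAP3d, 23 of 28 were higher (8.44% of all genes higher, 5.3% lower), 4 of them among those 7, while 21 of the 28 passed the filter only through the YAP7d libraries, and YAP3d against WT gave 0 of 28 by edgeR and 0 by DESeq2 (0 at an unadjusted p under 0.05 in either), with 0% of all genes called by edgeR. E2f1 was at 0 and 5.95 CPM in WT, at 0, 9.99, 0 and 0 in YAP3d and at 94.8, 68.7 and 68.4 in YAP7d. On 2 WT UMIs its ratio was 14.96 (counting interval 4.07 to 125), and with the Gm10709 term its log2 fold change was -0.36. Tk1 was at 0 and 8.93 CPM in WT, at 0, 20.0, 0 and 2.29 in YAP3d and at 49.1, 95.2 and 110 in YAP7d, a ratio of 11.7 (3.94 to 57.2) on 3 WT UMIs. Both genes, and Mcm3, Mcm5, Lig1 and Hells, passed the filter only through the YAP7d libraries, where they are high.

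The licensing subunits Mcm3 and Mcm5 rose in these cells by 3.42 ± 0.66 and 2.75 ± 0.56 on the log2 scale. Mcm3 was at 0 and 17.9 CPM in WT, at 0, 35.0, 0 and 13.8 in YAP3d and at 209, 148 and 95.8 in YAP7d. Mcm5 was at 0 and 26.8 CPM in WT, at 34.1, 54.9, 40.3 and 29.8 in YAP3d and at 208, 95.2 and 101 in YAP7d. Lig1 was at 0 and 14.9 CPM in WT, at 11.4, 49.9, 0 and 32.1 in YAP3d and at 175, 79.3 and 82.1 in YAP7d. Hells was at 11.2 and 17.9 CPM in WT, at 0, 24.97, 0 and 6.88 in YAP3d and at 113, 122 and 46.2 in YAP7d. All 4 genes were higher in each YAP7d library than in each other library. In the class, 22 of 28 had YAP7d above WT throughout (21.7% of all genes) and 21 above YAP3d (15.4%), but among the 7 that passed the filter without YAP7d the counts were 5 and 4.

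DESeq2 called 2 of the 28 against WT, the Gm10709 term left 0, and without WT replicate 2 the count was 2. The 23 calls against YAP3d became 12 without YAP7d replicate 1, 8 with the Gm10709 term and 3 with thinned cells, where 7 genes could be tested and 5 of those 7 had been called before. The median UMIs per NK-cell-like cell were 4065 in WT and 7611 in YAP7d. In this class the 12 NK markers, all with a count, summed to 16031 to 16088 CPM in WT and to 12666 to 17016 in YAP7d. The 15 macrophage markers went from 106 to 194 CPM in WT (Adgre1 at 0) to 244 to 646 in YAP7d, and the 13 T cell markers from 1590 to 1745 (Themis at 0) to 237 to 513, and their part in the result was not tested. Without cells that held 3 or more UMIs of another lineage, a filter chosen after seeing the data, 2 of 8 testable genes were called against WT, where 3 of the same 8 were called before, the median log2 fold change of the 8 was 1.53 both before and after, and YAP7d replicate 3 dropped out with 4 cells.

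Macrophage-like cells. Here 3 of 38 tested genes were higher in YAP7d than in WT and none lower, beside 0.893% of all 6609 genes higher and 1.42% lower. At an unadjusted p under 0.05 the number was 26. 2810417H13Rik was at 27.2 and 27.0 CPM in WT, at 101, 214, 92.2 and 11.6 in YAP3d and at 235, 237 and 248 in YAP7d, a log2 fold change of 3.14 ± 0.80. Tk1 was at 54.4 and 27.0 CPM in WT, at 220, 129, 123 and 34.7 in YAP3d and at 214, 238 and 249 in YAP7d, a log2 fold change of 2.83 ± 0.59. Mcm6 was at 13.6 and 18.7 CPM in WT, at 33.8, 67.5, 61.5 and 21.2 in YAP3d and at 95.4, 83.9 and 96.8 in YAP7d, a log2 fold change of 2.37 ± 0.54. YAP3d replicate 4 was below the other YAP3d libraries in all 3 genes.

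YAP3d against WT gave 0 of 38 by edgeR and 0 by DESeq2 (5 and 4 at an unadjusted p under 0.05), with 0% of all genes called. With a replicate block some genes were called in this comparison, and more in YAP7d against WT, as given in the closing section. YAP7d against YAP3d gave 0 of 38 by either tool (16 and 9 at an unadjusted p under 0.05), beside 0.0757% of all genes higher and 0.257% lower. YAP7d was above WT throughout in 27 of 38 (25.8% of all genes) and above YAP3d in 11 (6.91%). Of the 38, 12 passed the filter only through the YAP7d libraries, and among the other 26 the counts were 19 and 6. The class was held by different clusters: cluster 13 had 60 WT, 72 YAP3d and 0 YAP7d cells, and clusters 15 and 16 together had all 768 YAP7d cells and 11 and 25 of WT. In WT and YAP3d, cluster 13 was at 815 and 687 summed CPM of the 40 genes, while cluster 15 was at 369 in WT, 1255 in YAP3d and 2788 in YAP7d. Cluster 16, with 380 of the YAP7d cells, was at 860, 2441 and 1967, so that YAP3d lay above YAP7d there. With the coarser clustering (resolution 0.5) the class held 380 of its 768 YAP7d cells, monocyte-like cells went from 785 to 1173, and 1 gene was called in macrophage-like cells. The lowest YAP7d library of the class was then at 1527 CPM for the 40 genes and the highest YAP3d library at 2600. The count of calls was 0 without either WT library, 0 with the Gm10709 term and 15 without YAP3d replicate 4. The 15 macrophage markers summed to 33114 to 36252 CPM in WT and to 17682 to 26155 in YAP7d, and the 14 endothelial markers to 982 to 1068 and 163 to 246. The 12 neutrophil markers summed to 38.3 to 165 in WT (5 at 0, Ly6g included) and to 50.7 to 836 in YAP7d. The part of these shifts in the result was not tested, and without cells that held 3 or more UMIs of another lineage 0 of 12 testable genes were called, where 3 of the same 12 were called before, and their median log2 fold change was 1.705 before and 0.87 after.

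T-cell-like cells. No gene of 34 was called in YAP7d against WT by edgeR or DESeq2 (15 and 9 at an unadjusted p under 0.05), where 0% of all 6589 genes were called by edgeR. Some were called with a replicate block or with no filter on low counts, as given in the closing section. Against YAP3d, 8 of 34 were higher and none lower (0.85% of all genes higher, 0.137% lower), namely Rrm2, Tk1, Tyms and Rrm1 of nucleotide supply, 2810417H13Rik, Fen1, Tipin and E2f1. Of the 34, 27 passed the filter on WT and YAP3d libraries alone, with 6 of the calls, and 7 passed only through the YAP7d libraries, Tk1 and E2f1 among them. Rrm2 was at 43.5 and 39.7 CPM in WT, at 4.91, 16.5, 16.1 and 22.9 in YAP3d and at 118, 111 and 79.0 in YAP7d. It was thus lowest in YAP3d, with a log2 fold change of 2.53 ± 0.30 from YAP3d to YAP7d. Tk1 was at 8.70 and 13.4 CPM in WT, at 0, 19.8, 2.02 and 7.75 in YAP3d and at 53.6, 43.7 and 59.9 in YAP7d. 2810417H13Rik was at 91.4 and 93.5 CPM in WT, at 4.91, 79.3, 32.3 and 41.6 in YAP3d and at 278, 205 and 195 in YAP7d. Each of these 3 genes had its YAP7d libraries above all others.

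Tyms was at 28.3 and 22.4 CPM in WT, at 4.91, 34.7, 14.1 and 13.9 in YAP3d and at 76.3, 57.1 and 55.0 in YAP7d. Rrm1 was at 43.5 and 24.97 CPM in WT, at 14.7, 21.5, 16.1 and 14.3 in YAP3d and at 79.5, 60.5 and 40.2 in YAP7d, so that 1 WT library lay inside the YAP7d range. E2f1 was at 15.2 and 8.96 CPM in WT, at 4.91, 4.96, 6.05 and 3.67 in YAP3d and at 34.1, 6.72 and 26.1 in YAP7d, again with WT inside the YAP7d range. YAP7d was above WT throughout in 17 of 34 genes (12.4% of all) and above YAP3d in 20 (7.44%), and among the 27 that passed the filter without YAP7d in 13 and 14. YAP3d against WT gave 0 of 34 by edgeR and 0 by DESeq2 (3 and 2 at an unadjusted p under 0.05), with 0% of all genes called.

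Clusters of the class stood at different levels. Cluster 3 (Ctla4 and Icos among its leading genes) was at 3010, 1927 and 2967 summed CPM of the 40 genes in WT, YAP3d and YAP7d, and cluster 9 (Lef1, Tcf7) at 703, 583 and 589, while cluster 2 went from 1228 and 844 to 2631. Of 463 WT and 391 YAP7d cells, cluster 9 held 180 and 163, cluster 3 held 56 and 126, and cluster 2 held 227 and 102. The larger number of cluster 3 cells in YAP7d moved with the sum of the class, and its part in that sum was not tested. The 8 calls against YAP3d fell to 1 with the Gm10709 term and to 1 without YAP3d replicate 3 or without YAP7d replicate 1. The 13 T cell markers summed to 4367 to 4892 CPM in WT and 3757 to 4210 in YAP7d, and the 15 macrophage markers to 73.0 to 260 and 308 to 648, and their part in the result was not tested.

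Monocyte-like and B-cell-like cells. In monocyte-like cells 0 of 10 tested genes were called in any of the 3 comparisons by edgeR or DESeq2. With classes from a coarser clustering (resolution 0.5), 39 genes could be tested and 5 were called against WT and 5 against YAP3d. The class then held 1173 instead of 785 YAP7d cells, and its sum was 381 CPM in WT, 873 in YAP3d and 1842 in YAP7d. At an unadjusted p under 0.05 edgeR gave 1 in YAP7d against WT, 0 in YAP3d against WT and 3 in YAP7d against YAP3d, and DESeq2 1, 0 and 0. Of all 6266 genes, 0.016% were called higher and 0.176% lower in YAP7d against WT, and 0% in the other 2 comparisons. Slbp was at 88.9 and 49.8 CPM in WT, at 91.5 and 57.6 in YAP3d and at 83.5, 57.3 and 52.6 in YAP7d. Pcna was at 33.3 and 77.2 CPM in WT, at 47.8 and 69.8 in YAP3d and at 64.9, 46.5 and 61.2 in YAP7d. Rfc2 was at 22.2 and 82.2 CPM in WT, at 47.8 and 75.1 in YAP3d and at 36.3, 50.1 and 61.2 in YAP7d. The groups overlapped in all 3. 2810417H13Rik, chosen after its values were seen, had 0 UMIs in WT and 327 in YAP7d, 297 of them in replicate 3. Pooled over libraries it was at least 6.58-fold higher against a floor of 3 counts over the WT group, a value that rests mostly on that library. By library it was at 28.6, 14.3 and 45.8 CPM in YAP7d, and it was not called (adjusted p = 0.30, edgeR). YAP7d was above WT throughout in 3 of 10 genes and above YAP3d in 3 (15.6% and 9.08% of all genes). In the class 7 of the 10 passed the filter only through the YAP7d libraries, and among the other 3 both counts were 0.

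In B-cell-like cells 3 genes were tested, and 0 were called in any comparison by edgeR or DESeq2 (0 at an unadjusted p under 0.05 in each). Of all 2247 genes, 0% were called higher and 0.0445% lower in YAP7d against WT. Slbp was at 63.5 and 115 CPM in WT, at 117, 135, 240 and 95.1 in YAP3d and at 131, 76.3 and 117 in YAP7d. Rfc2 was at 72.5 and 99.8 CPM in WT, at 68.4, 93.1, 94.2 and 106 in YAP3d and at 84.3, 107 and 85.9 in YAP7d. Pcna was at 63.5 and 66.0 CPM in WT, at 58.7, 93.1, 94.2 and 77.0 in YAP3d and at 46.9, 53.4 and 62.5 in YAP7d, below both WT libraries. No gene of the 3 had YAP7d above WT or above YAP3d throughout (6.76% and 2.49% of all genes).

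Differences between classes were tested in a model over both classes of the same libraries. The change from WT to YAP7d was larger in endothelial-like than in T-cell-like cells for 8 of 36 genes (Mcm5, Mcm6, Mcm7, Gins2, Tk1, Rfc4, Uhrf1 and Hells), beside 1.81% of all genes. Of these, Gins2, Uhrf1 and Hells passed the filter in endothelial-like cells only through the YAP7d libraries, where they are high. The differences ran from 1.73 ± 0.36 (Mcm6) to 3.87 ± 0.82 (Gins2) on the log2 scale. Leaving out 1 library at a time gave 0 to 21 genes with a larger change, with 0 without WT replicate 2 or YAP7d replicate 3 and 21 without YAP3d replicate 4. Against macrophage-like cells 1 of 38 genes differed, Tk1 by 2.98 ± 0.74 (0.959% of all genes), and it did not hold without either WT library or without YAP7d replicate 3. Against B-cell-like cells 0 of 24 differed by edgeR (7 at an unadjusted p under 0.05, and no other tool was run), beside 1.6% of all genes. On simulated counts this test recovered 2.11% of 2-fold and 26% of 4-fold changes against macrophage-like cells. The shares were 1.14% and 31.9% against B-cell-like and 2.08% and 40.4% against T-cell-like cells, so a low count does not show that changes were alike.

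The number of cells that carried several of these RNAs was counted after each cell was thinned to 2000 UMIs. Cells with at least 5 UMIs of the 40 genes made up 2.11% ± 0.177 of endothelial-like cells in WT (SD, n = 2), 7.79% ± 4.91 in YAP3d and 30.5% ± 7.03 in YAP7d. The YAP7d libraries (23.4% to 37.5%) lay above all others (up to 11.9%). Before thinning the shares were 19.4%, 29.0% and 77.3%, and 180 of 778 WT cells, 159 of 1057 YAP3d cells and 0 of 111 YAP7d cells were too shallow to be thinned. In NK-cell-like cells the thinned share was 7.32% ± 3.62 in WT, 3.88% ± 4.48 in YAP3d and 44.7% ± 10.2 in YAP7d, in macrophage-like cells 5.13% ± 2.84, 24.2% ± 18.7 (n = 3) and 37.9% ± 6.96, and in T-cell-like cells 6.63% ± 0.165, 7.95% ± 4.14 and 18.6% ± 4.90. Macrophage-like cells of YAP3d ranged from 5.20% to 42.5% and overlapped YAP7d.

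For reference, neutrophil-like cells are a class whose mature cells have left the cycle, and how mature these were was not tested. Cells with at least 5 UMIs made up 0 of 10 in WT (exact interval up to 30.85%), 1 of 39 in YAP3d (2.56%, 0.065% to 13.5%) and 1 of 57 in YAP7d (1.75%, 0.044% to 9.39%). A further 19, 33 and 0 cells were too shallow to be thinned. The median depths over all 29, 72 and 57 cells were 1911, 2062 and 6305 UMIs before thinning. A single UMI set the classes less apart, since 28 of the 57 neutrophil-like cells of YAP7d (49.1%) had at least 1, against 94 of the 111 endothelial-like cells of YAP7d (84.7%). Monocyte-like cells stood at 0% in both WT libraries, 0.658% ± 0.931 in YAP3d (n = 2) and 1.26% ± 1.10 in YAP7d, and B-cell-like cells at 0.754% ± 1.07, 3.38% ± 1.95 and 3.21% ± 2.88. In thinned endothelial-like cells of YAP7d a cell held a median of 2 and at most 14 of the 40 genes, against a median of 1 in WT and in YAP3d and at most 9 and 19.

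**Figure D5:**
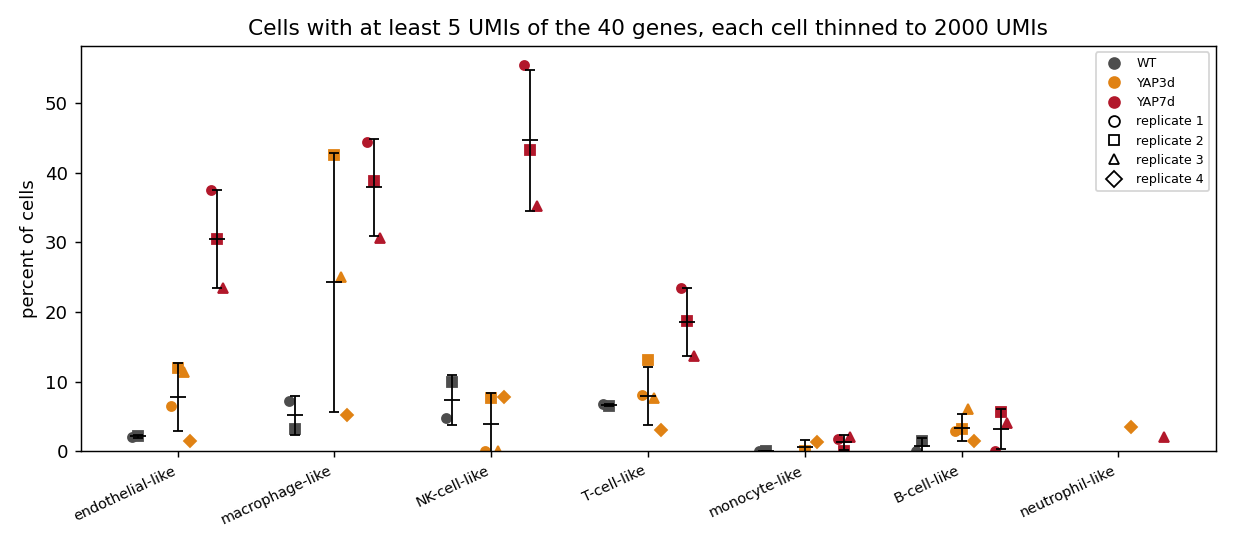
Percent of cells with at least 5 UMIs of the 40 genes after each cell was thinned to 2000 UMIs (vertical axis), for each library with at least 10 such cells, by class. Colours are groups, symbols are replicate numbers, black bars are mean ± SD. In endothelial-like cells the YAP7d libraries lie between 23.4% and 37.5%, and the highest other library is at 11.9%.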

How the data were processed

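Single-cell counts of mouse liver were analysed in 9 libraries, grouped by their labels. The authors made the deposited table of raw UMI counts per gene and cell with Cell Ranger on mm10, from 3′ v2 libraries, and pooled the libraries in 1 table, and their methods name Seurat 2 for later steps. No counts were changed before use.

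Cells with at least 200 genes (8527 of 8562) were clustered without cell cycle genes (scanpy 1.11.5, 2442 variable genes, 30 components, 15 neighbours, Leiden resolution 1), giving 25 clusters. A cluster was named "X-like" from at least 3 raised markers of a list. The demand for at least 1 own marker among the 10 leading genes was added after a first clustering was seen and left 22 cells unnamed. Scrublet marked 65 cells (0.759%) as doublets, and they were kept.

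Counts were summed per library and class (at least 10 cells) and tested with edgeR 4.0.16 (filterByExpr, TMM, quasi-likelihood, all 3 groups in 1 fit, Benjamini-Hochberg over all genes tested, threshold 0.05). A change was compared between classes with a block for the library. The CPM of single genes in the tested classes is on TMM-scaled library sizes, and sums are per plain total. DESeq2 1.42.0 was a second tool. On simulated counts for 6957 endothelial-like genes, 40.6% of 2-fold and 91.5% of 4-fold changes were recovered. For 5902 macrophage-like genes the shares were 8.99% and 64.9%. Intervals are exact (95%) and cover counting error only, and the floor is 3 counts.

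Named genes were, in each tested class, at most 6 of the members with the largest change at an adjusted p under 0.05 in YAP7d against WT (else against YAP3d, else the 3 with the highest mean CPM), and a fixed list of members that could be named in any class and of cell cycle genes, besides at most 6 called genes with the largest change for each related list. Values of that list are given for endothelial-like cells only, a limit set after its values in the other classes were seen. The 40 genes and all lists were chosen with earlier results of these data known. Gene positions and promoters are from RefSeq (GRCm38.p6), where all 40 genes had a position. There were 12 alternatives planned and 2 added after seeing the data. The cutoff of 100 CPM for Gm10709 was also set after its values were seen. One gene of a related list that the naming rule selects is not reported here.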

Additional observations from a re-analysis of the deposited data

Results flagged for a closer look

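In groups of 4 libraries, 5 of 30 sets of values tested held 1 library far from the other 3, where chance alone marks about 1 in 20. In NK-cell-like cells YAP3d replicate 2 stood apart with a summed 1762 CPM of the 40 genes, 9.99 CPM of E2f1 and 20.0 CPM of Tk1, but the latter pair rested on 2 and 4 UMIs beside 0 or 1 in the other YAP3d libraries. In conventional dendritic-like cells YAP3d replicate 1 stood apart at 2863 CPM. In endothelial-like cells YAP3d replicate 4 stood apart with 2.49 CPM of Chaf1b, below the other 3.

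The change from WT to YAP7d differed between classes of cells for 9 comparisons of a gene by the test of the difference itself (edgeR, adjusted p). It was larger in endothelial-like than in macrophage-like cells for Tk1 by 2.98 on the log2 scale (0.027). It was larger in endothelial-like than in T-cell-like cells for Mcm5 by 2.13 (0.0095), Hells by 2.58 (0.014), Mcm6 by 1.73 (0.015), Gins2 by 3.87 (0.015), Mcm7 by 2.44 (0.029), Uhrf1 by 3.38 (0.032), Tk1 by 3.80 (0.034) and Rfc4 by 2.32 (0.037). Hells, Gins2 and Uhrf1 passed the filter in endothelial-like cells only through the YAP7d libraries.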

How the results depend on the processing

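Counts are of genes called out of those tested, in YAP7d against WT unless said. With the Gm10709 term, endothelial-like cells had 1, NK-cell-like 0 and macrophage-like 0, and against YAP3d 3, 8 and, in T-cell-like cells, 1. With cells thinned to 2000 UMIs, where 12, 7 and 14 genes could be tested, they had 3, 2 and 1 (9, 3 and 3 of the same genes before thinning), and against YAP3d endothelial-like 2, NK-cell-like 3 and T-cell-like 1. Without cells with 3 or more UMIs of another lineage, NK-cell-like had 2 and macrophage-like 0, and against YAP3d endothelial-like 16, NK-cell-like 2 and T-cell-like 1. Of the 29, 8 and 28 genes tested both ways against YAP3d, 23, 6 and 7 were called before. Their median log2 fold changes were 1.76, 1.48 and 1.21 before and 2.02, 0.963 and 1.08 after. Without cells with over 5 such UMIs per 10000, NK-cell-like had 3 (of 10 genes, 5 called before, median log2 fold change 1.88 before and 1.63 after) and macrophage-like 0 (of 34, 3 before, 1.67 and 1.41). Against YAP3d the same 3 classes had 16, 6 and 4. There 23 of 28, 8 of 10 and 7 of 30 were called before, with medians of 1.89, 1.93 and 1.27 before and 2.13, 1.72 and 1.23 after. These 2 filters were chosen after seeing the data, and they left 12, 10 and 0, or 21, 15 and 1, endothelial-like cells in YAP7d replicates 1, 2 and 3, so that replicate 3 was not in those fits. DESeq2 gave 2 in NK-cell-like cells. Stricter cell filters or resolution 0.5 each gave 1 in macrophage-like cells, and resolution 0.5 gave 5 in monocyte-like cells, also 5 against YAP3d. With no filter on low counts there were 16 in macrophage-like, 7 in T-cell-like, 1 in B-cell-like and 1 in monocyte-like cells, against YAP3d 7 and 25 in the first 2 of these, 2 in B-cell-like and 35 in NK-cell-like cells, and in YAP3d against WT 1 in T-cell-like cells. The differences between classes were then 1 (B-cell-like), 15 (T-cell-like) and 0 (macrophage-like).

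The libraries were not treated as paired, since in no class did every same-numbered pair correlate over 0.1: 3 of 7 pairs did in B-cell-like, endothelial-like, T-cell-like and macrophage-like cells, 4 of 7 in NK-cell-like and 1 of 4 in monocyte-like cells. Pairs of replicates 1 were over 0.1 in every class (0.107 to 0.386), and the other same-numbered pairs ran from -0.407 to 0.141. Across numbers, WT replicate 2, YAP3d replicate 4 and YAP7d replicate 3 correlated with each other in every class (0.157 to 0.658). These are the libraries with most cells in their groups, and no fit had a term for this. With the replicate block, macrophage-like cells had 9 (2 in YAP3d against WT) and T-cell-like 3, and endothelial-like cells had 11 against YAP3d.

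Leaving out 1 library at a time gave 18 (without WT replicate 1) to 31 in endothelial-like cells, 2 to 19 in NK-cell-like, 0 to 15 in macrophage-like and 0 to 1 in monocyte-like. Against YAP3d it gave 15 (without YAP3d replicate 4 or YAP7d replicate 3) to 28, 12 (without YAP7d replicate 1) to 32, 0 to 13 and, in T-cell-like cells, 1 to 12. The differences between classes ranged from 0 to 1 (B-cell-like), 0 to 21 (T-cell-like) and 0 to 1 (macrophage-like).

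Summed CPM moved with thinning to 572 in WT of B-cell-like cells, 933 and 1580 in WT and YAP7d of T-cell-like, 2261 in YAP7d of macrophage-like, 375 in WT of cholangiocyte-like, 412 in YAP7d of neutrophil-like and 454 in YAP7d of plasmacytoid dendritic-like cells. Those of conventional dendritic-like cells were then 1306, 1166 and 1165 in WT, YAP3d and YAP7d, each within 1 SD of the value without thinning. In B-cell-like cells YAP3d and YAP7d were at 741 and 707 after thinning, also within 1 SD, so that YAP7d then lay below YAP3d. At resolution 0.5 summed CPM moved to 2140 in YAP7d of macrophage-like cells and to 873 and 1842 in YAP3d and YAP7d of monocyte-like cells. Shares of cells with at least 5 UMIs without thinning, in WT, YAP3d and YAP7d, were 13.1%, 12.7% and 16.3% in B-cell-like, 36.7%, 31.0% and 73.7% in NK-cell-like, 22.8%, 31.0% and 43.6% in T-cell-like, 19.4%, 29.0% and 77.3% in endothelial-like, 19.1%, 46.9% and 86.5% in macrophage-like, 24.3%, 29.6% and 32.1% in monocyte-like and, in YAP7d, 11.8% in neutrophil-like cells. With cells thinned to 1000 UMIs they were 0.074% and 0.0% in YAP3d and YAP7d of B-cell-like, 0.61% and 23.7% in WT and YAP7d of NK-cell-like, 3.52% and 8.80% of T-cell-like, 0.199% and 15.1% of endothelial-like and 16.5% in YAP7d of macrophage-like cells.

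The direction of single genes turned in these cases (log2 fold change). With the Gm10709 term Orc6 in endothelial-like cells was at -0.29 (not called), E2f1 in NK-cell-like cells at -0.36, and in monocyte-like cells Pcna at 0.43, Rfc2 at 0.29 and Slbp at -0.59. Leaving out 1 library gave, in monocyte-like cells, -0.40 to 0.88 for Pcna, -0.73 to 1.22 for Rfc2 and -0.41 to 0.36 for Slbp, each turned without WT replicate 2, and Slbp at -0.23 without YAP7d replicate 1. At resolution 0.5 Pcna was at 0.94 and Rfc2 at 0.40, and with no filter Pcna at 0.00027. Without cells with 3 or more UMIs of another lineage Pcna was at 0.35 and Slbp at -0.77, with over 5 per 10000 left out Slbp at -0.056, and thinned at -0.85. In B-cell-like cells Rfc2 was at -0.043 with no filter, -0.13 to 0.35 with 1 library left out (turned without WT replicate 1 or YAP7d replicate 2) and -0.18 without cells with 3 or more UMIs of another lineage, and Slbp at -0.097 with the replicate block, -0.097 (without WT replicate 1) to 0.78 with 1 library left out and -0.016 and -0.045 under the 2 filters on other lineages. None of these values of monocyte-like or B-cell-like cells was called. Unless a cause is named, the cause was not tested.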
